A study of Gallus gallus with 20 samples.

Results

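The 9 affected MuSC libraries of the study, of 20 libraries in all, were ordered by 4 genes of macrophages and other leukocytes. The 3 libraries at the top of that order were set against the 3 at the bottom. MuSCs are muscle satellite cells, here grown as primary skeletal myoblasts from the pectoralis major of Ross 308 broilers of 36 days of age. Each sample is 1 RNA-seq library, and the labels do not say whether samples that share a bird number are separate cultures. Affected birds had Wooden Breast, a breast muscle myopathy with fibrosis, as judged by histology and near-infrared spectroscopy, and 11 libraries came from non-affected birds. Per the paper, cells came from birds raised for the study, which were first sorted by palpation, or from fillets collected at an abattoir. The paper does not state which source each library had. No treatment was given to the cultures of either group. The cells were freed from the muscle with collagenase and trypsin and left for 1 h on uncoated plastic to remove fast-adhering fibroblasts, and no step against leukocytes is described. The order was chosen by measured values, namely the mean of log2(CPM + 1) of CSF1R, PTPRC, LAPTM5 and CTSS, where CPM are counts per 1e+06 counts of a library after TMM scaling. A comparison of libraries selected on such values is a description and carries no test. The only tests of genes on the score below are those in the 11 non-affected libraries, which had no part in the order. Limits for counting noise between pairs and for gaps between affected libraries are used as descriptions.

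Macrophages clear debris and apoptotic fibres from damaged muscle, and they depend on CSF1R, the receptor for the growth factors CSF1 and IL34. PTPRC (CD45) is a phosphatase on the surface of nearly all leukocytes, LAPTM5 is a lysosomal membrane protein of blood cells, and CTSS is a lysosomal cysteine protease prominent in antigen-presenting cells. Cells of the macrophage lineage are further known for the transcription factor SPI1 (PU.1), for the actin bundler LCP1 (L-plastin), for the integrin chain ITGB2 and for the NADPH oxidase subunit CYBB. Cathepsins and other lysosomal enzymes, in contrast, are made by many cell types. In RNA from a whole culture, fewer cells of a type and less RNA per cell cannot be told apart.

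Between 15632148 and 26541170 estimated counts were assigned to genes per affected library, and between 15425134 and 28113851 per non-affected library. PAX7, the transcription factor of satellite cells, was detected in every affected library, at 34.5 CPM in A76B to 130 CPM in A85. The bird numbers A16 and A76 each occur again with a suffix B that the labels leave unexplained, and each library was used as 1 sample. In each of the 36 affected pairs at least 53.2% of the genes differed beyond counting noise, so no pair was 1 library sequenced again. Separate preparations from 1 bird could also differ beyond counting noise, so the values do not tell whether 2 libraries came from 1 bird. A76 stood apart by HINTW, a gene of the female-specific W chromosome, with 876 counts (45.8 CPM) against 0 to 9 counts in the other 8 affected libraries. The paper describes the birds raised for the study as male and gives no sex for the abattoir fillets. A76 belongs to the 3 lowest libraries, and A76B, with the same number and 0 counts of HINTW, to the 3 highest.

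The score ran from 2.65 in A73 to 4.94 in A79, with a median of 3.67. The highest libraries were A79 (4.94), A76B (4.54) and A16B (3.75), and the lowest were A73 (2.65), A76 (3.11) and A85 (3.13). The groups were not set off by gaps in the score. A16B at 3.75 was followed by A16 at 3.67, and A85 at 3.13 was next to A4 at 3.24. The widest step in the order was that from A76B to A16B. In the 11 non-affected libraries the score lay between 1.47 in NA70 and 3.38 in NA61B, and 3 of them were above the lowest affected library.

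The markers did not order the libraries alike. CSF1R (GRCg7b, chr13:12879074-12896912) had 21.3 CPM (A79) and 9.57 CPM (A76B) in the top pair, while the remaining high library, A16B, had 1.46 CPM and lay below A85, a low library with 2.96 CPM. The other affected libraries had 0.185 to 2.03 CPM of CSF1R, and no non-affected library exceeded 0.957 CPM. PTPRC (chr8:2035004-2116225) was at 27.6 CPM in A79, 30.6 CPM in A76B and 20.7 CPM in A16B, but A16, outside the high group, also had 30.6 CPM, and the low libraries had 10.6 to 19 CPM. LAPTM5 (chr23:643935-658364) was at 23.6 CPM in A79, 18.1 CPM in A76B and 9.83 CPM in A16B, the last just under the 9.91 CPM of A85. The groups thus overlapped for CSF1R and LAPTM5. They did not overlap for PTPRC, whose difference was only 0.73 on the log2 scale. CTSS (chr25:2545641-2551003) was the only marker of the 4 whose groups did not overlap at a difference of 1 or more on the log2 scale, with 44.4 to 55.9 CPM in the high and 10.8 to 27.2 CPM in the low libraries. Its difference was 1.32 on the log2 scale, with SDs of 0.18 and 0.72 (n = 3 each). Across the 9 libraries CSF1R and LAPTM5 varied together (Pearson r = 0.71, Spearman rho = 0.80), whereas LAPTM5 and CTSS did not (r = -0.01, rho = 0.18). These coefficients describe 9 libraries that share a scaling, and the markers belong to the score by construction.

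**Figure D1:**
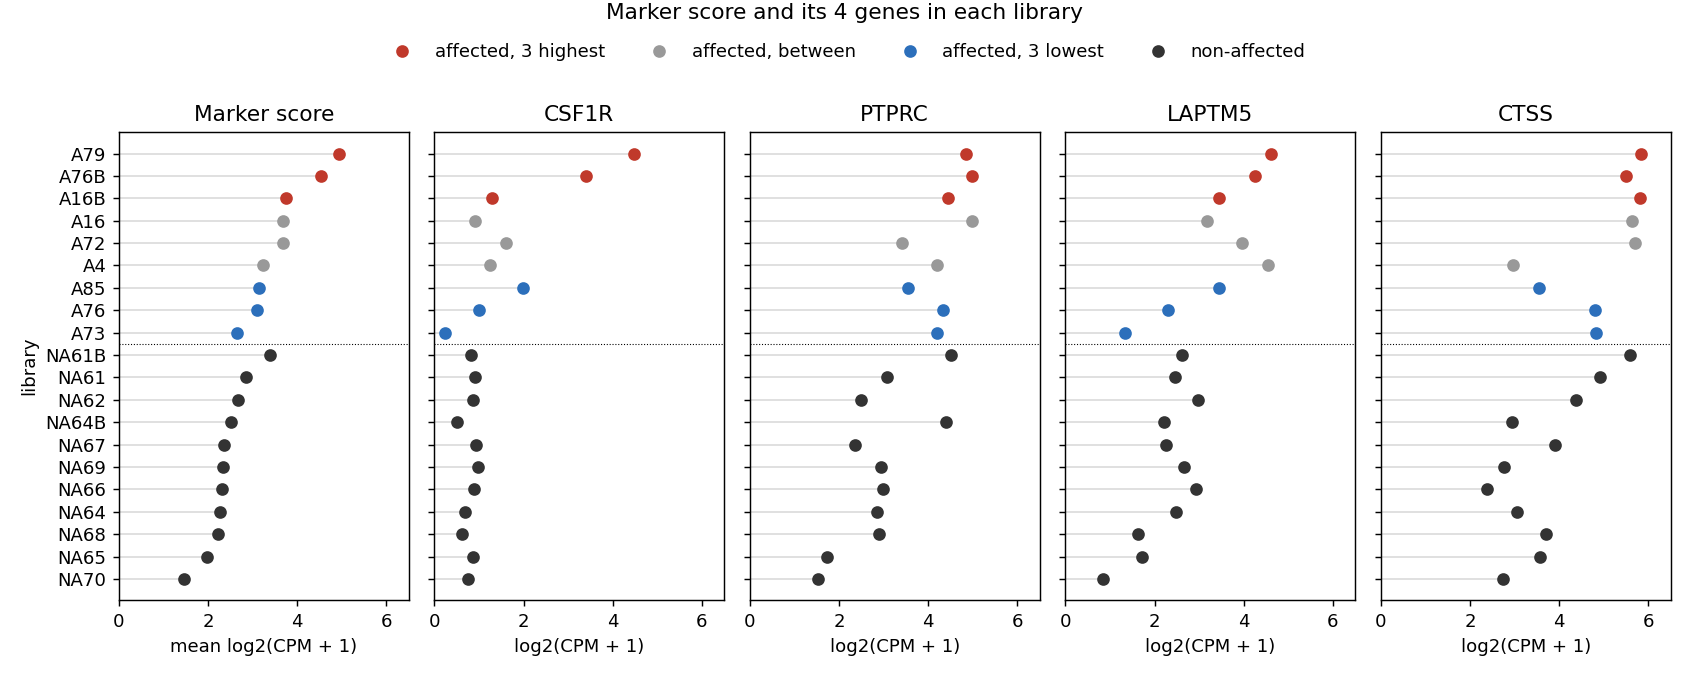
Each row is 1 library, ordered by score within the affected libraries (above the dotted line) and the non-affected ones (below it); the panels give the score and log2(CPM + 1) of its 4 genes. Only A79 and A76B have CSF1R well above the remaining libraries, while high CTSS is shared by A16B, A16, A72 and NA61B.

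The high libraries differed in their leukocyte genes, and the group is therefore called by its score. Lists of leukocyte genes (myeloid receptors, leukocyte signalling, myeloid transcription factors, antigen presentation, complement, phagocyte oxidase and the 4 markers) had 102 genes with a mean of at least 10 counts over the affected libraries. Of these, 23 were higher in both A79 and A76B than in each of the other 7 affected libraries, by a mean difference of 1 or more on the log2(CPM + 1) scale. In the comparison of 3 high with 3 low libraries, only 3 of the 102 genes met the same rule, namely CTSS, BTK and TREM2, and TREM2 was higher in A16B (8.98 CPM) than in A76B (5.95 CPM). The comparison of A79 and A76B with the other 7 was added after the values had been seen. Over all 14618 genes other than the 4 markers, 0.588% were higher and 0.219% were lower by that rule, and as these libraries were selected on leukocyte genes the share among such genes is read as a description only.

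Of the 26 passing leukocyte signalling genes 9 were among the 23, and the examples here are taken from these. Other members were lower in the top pair on average, such as the kinase LYN (-0.58) and the adaptor SLA (-0.59), and the summed level of the list was 560 to 566 CPM in the top pair and 438 to 915 CPM in the other 7. LCP1 (chr1:167910600-167959913) was at 17 CPM in A79, 7.12 CPM in A76B, 0.307 CPM in A16B, 1.61 CPM in A85, 1.11 CPM in A72 and 0.123 to 0.587 CPM in the other 4 affected libraries. Its highest value in a non-affected library was 0.431 CPM, which A85, A72, A16 and A4 also exceeded, though by far less than the top pair. CD48, an adhesion ligand of leukocytes, had 103 counts in A79, 59 in A76B and 16 in the other 7 affected libraries together. No count of CD48 was found in any of the 11 non-affected libraries, where a count of 0 allows up to 3 counts per library. INPP5D (SHIP1), a lipid phosphatase of blood cells, was at 4 and 4.42 CPM in A79 and A76B and at 0.185 to 1.31 CPM elsewhere in the affected group. The tyrosine phosphatase PTPN6 (SHP-1) was at 5.09 and 3.74 CPM against at most 1.90 CPM, and NCKAP1L at 14.7 and 8.35 CPM against at most 4.34 CPM.

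Receptors and effectors of myeloid cells are shown here by genes that were higher in the top pair than in each of the other 7. Of 30 passing myeloid receptors 9 met the rule for the top pair, as did 1 of 12 myeloid transcription factors and 1 of 10 phagocyte oxidase genes. The summed level of the receptor list overlapped, with 3670 to 4340 CPM in the top pair and 2350 to 4280 CPM in the other 7. CSF3R, the receptor for granulocyte colony-stimulating factor, had 41.8 CPM (A79) and 29.5 CPM (A76B), and 2.71 to 11.2 CPM in the other 7. LY86 (MD-1), which pairs with a Toll-like receptor homologue, was at 35.3 and 19.8 CPM, followed by A72 with 15.3 CPM and A85 with 9.39 CPM. TLR4, the lipopolysaccharide receptor, reached 4.86 and 2.95 CPM and at most 0.571 CPM in the others. VSIG4, a complement receptor of resident macrophages, was at 6.46 and 4.85 CPM, with A85 next at 1.66 CPM. Of the oxidase and integrin chains, CYBB was at 9.09 and 6.63 CPM against 0.763 to 3.11 CPM, and ITGB2 at 9.55 and 5.71 CPM against 0.587 to 2.39 CPM. The top pair stood above the other 7 in each of these genes by the way they were chosen. SPI1 (chr5:22480518-22502269), which directs the myeloid lineage, was at 11.6 and 7.18 CPM and at 0.921 to 3.92 CPM in the other 7, with A76, a low library, next after the top pair and A16B last. ACP5, the tartrate-resistant acid phosphatase of macrophages and osteoclasts, had 90 CPM (A79) and 45 CPM (A76B), against 18.9 CPM in A72 and 5.91 to 8.32 CPM in the others. It was the only 1 of 44 cathepsin and lysosomal genes to meet the rule for the top pair. The median difference of that list between the top pair and the other 7 was -0.001.

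In all 23 genes both A79 and A76B were above the highest non-affected library, which held for 669 of all 14622 genes, and the 23 were chosen for high values in these libraries. A79 exceeded A76B in 22 of the 23, and the ratio of their CPM values had a median of 1.65 and a range from 0.906 (INPP5D) to 4.66 (CD74, the invariant chain of MHC class II). Over all 14622 genes with enough counts that ratio had a median of 1.01 and quartiles of 0.84 and 1.19. The next library after the top pair was A85 or A72 in 19 of the 23 genes. Among all 86 genes other than the markers that were higher in the top pair, it was A85 or A72 in 45. A85 is one of the 3 lowest by the score, so that the score and the 23 genes put it at different places.

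**Figure D2:**
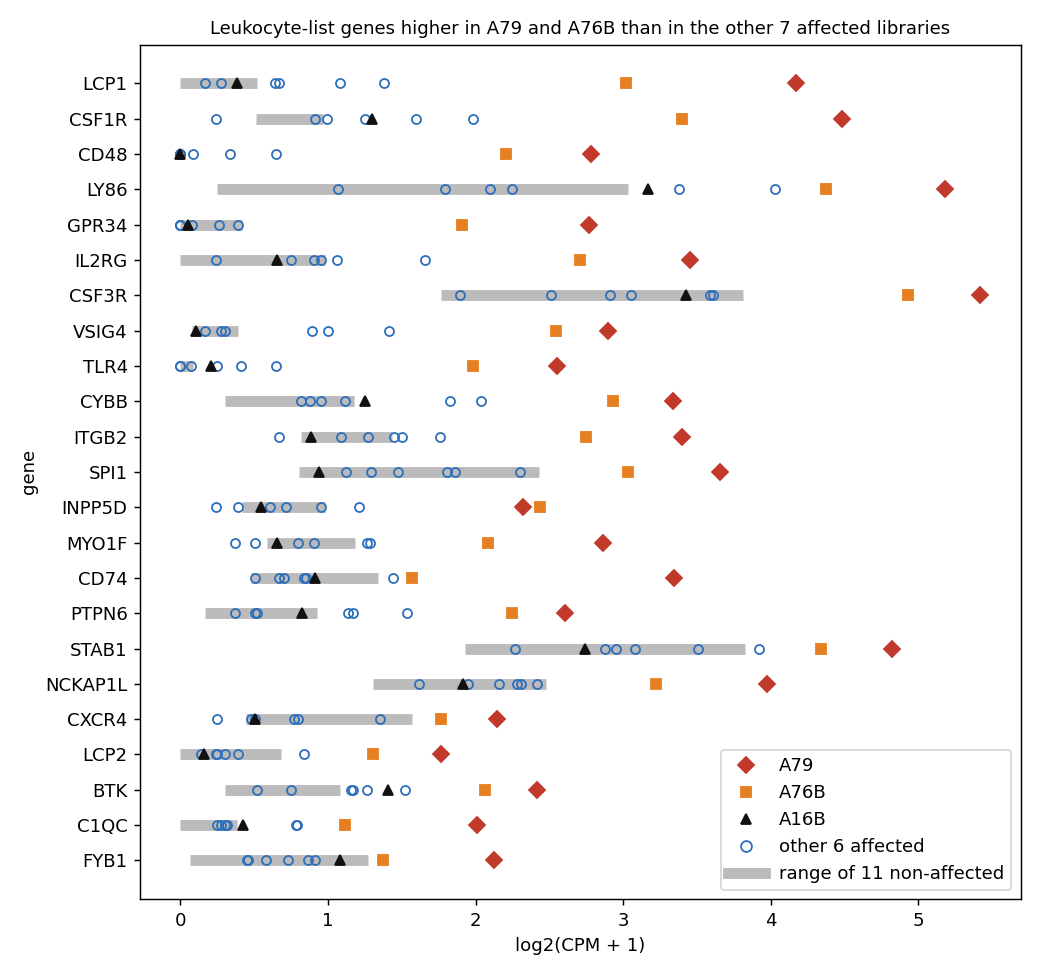
For each of the 23 leukocyte-list genes, log2(CPM + 1) is shown for A79 (diamond), A76B (square), A16B (triangle), the other 6 affected libraries (open circles) and the range of the 11 non-affected libraries (bar). The diamonds and squares lie to the right of every bar, and the triangle lies at or below the upper end of the bar in 17 of the 23 genes.

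A16B, next after the top pair by the score, was lower than that pair in these 23 genes by the way they were chosen, which also includes CSF1R, a gene of the score. Some of them passed the filter mainly through the top pair, such as CD48. Genes in which A16B or another remaining library exceeded A76B, such as CTSS and TREM2 for A16B, were left out by the choice. The place of A16B among the remaining libraries was thus partly set by it and is a description only. A16B was at or below the highest non-affected library in 17 of the 23 and below both A72 and A85 in 19. It exceeded all 3 low libraries in only 2 of them. Its place in the order rested on CTSS (55.4 CPM) and PTPRC (20.7 CPM), and the library with the same bird number, A16, had a like profile with 48.5 and 30.6 CPM. When the score was computed without PTPRC, A72 took the place of A16B, without CSF1R A16 did, and without CTSS A4 did. A score from 56 passing genes of the receptor and signalling lists also placed A72 after the top pair. A79 and A76B stayed at the top under each of these scores. The scores with a marker left out keep the other markers that chose this pair. The score from the lists holds genes that passed the filter mainly through the pair, such as CD48. Their place at the top is therefore a description only.

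The score itself set A76B and A76 in opposite groups and A16B and A16 side by side, so their leukocyte genes are given as values only. CSF1R was 9.63 times as high in A76B (156 counts) as in A76 (19 counts), LCP1 34 times (116 against 4 counts) and ACP5 7.22 times. Between A16B and A16 the ratios were 1.66 for CSF1R, 0.523 for LCP1 and 0.95 for ACP5. The contrast was smaller in PTPRC (1.61 for number 76 and 0.678 for number 16), CTSS (1.64 and 1.14) and SPI1 (1.83 and 0.785). The libraries of a number were no closer to each other than libraries of different numbers. By the median absolute log2 difference, A16 and A16B ranked 18 and A76 and A76B ranked 22 among the 36 pairs, and A79 and A76B ranked 2.

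Genes of other blood cells had low summed levels in the high and the low libraries. The 16 listed T and NK cell genes summed to 8.96 to 10.5 CPM in the high libraries, 8.16 to 8.5 CPM in the low and 6.16 to 14.5 CPM in the non-affected ones. CD3E, a chain of the T cell receptor complex, had 0 counts in A79 and 1 in A76B, and CD4 had no count in any affected library. B cell genes summed to 21.2 to 27.8 CPM in the high and 19.9 to 24.4 CPM in the low libraries. Most of this was EBF1, with 15.1 to 20.8 CPM in the high and 14.9 to 17.1 CPM in the low libraries. The thrombocyte and heterophil list summed to 44.1 to 73.4 CPM in the high and 33.3 to 46.8 CPM in the low libraries, and it holds CSF3R. Endothelial genes summed to 74.1 to 113 CPM in the high and 106 to 132 CPM in the low libraries, and PECAM1 was at 7.27 to 12.8 CPM in all 9. Fibroblast genes summed to 22300 to 35700 CPM in the high and 13600 to 29300 CPM in the low libraries, so these ranges overlapped. Among macrophage scavenger receptors, MRC1 had only 10 and 5 counts and MARCO 20 and 5 counts in A79 and A76B, whereas STAB1 had 478 and 314 counts and CD36 2301 and 924. CD36 did not set these libraries apart, since A4 (152 CPM) and A16B (151 CPM) exceeded both A79 (132 CPM) and A76B (56.7 CPM). Of the affected libraries only A76 (29.9 CPM) and A73 (7.82 CPM) were below A76B, and the highest non-affected library had 193 CPM.

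Between the 3 high and the 3 low libraries, 140 genes other than the markers were higher (0.958% of 14618) and 51 were lower (0.349%) by a difference of at least 1 with no overlap of the groups. The median difference over all genes was 0.01. Only 11 genes were shared with the 86 that were higher in A79 and A76B than in the other 7, which is 7.86% of the 140 and 12.8% of the 86. In 123 of the 140 genes A16, outside both groups, was also above all 3 low libraries. A16B was the highest of the 9 libraries in 44 of them, A76B in 30 and A79 in 27, while A73 was the lowest in 68 and A76 in 34. Without A76 the counts were 67 and 16, without A73 they were 73 and 15, and without A85 the lower genes numbered 23, with A4 entering the low group each time. Without A79 the lower genes numbered 81, with A16 entering the high group.

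Among the genes with the largest positive differences were receptors and secreted proteins of stromal and immune cells. TREM2 (chr26:4788001-4793698), a lipid receptor of macrophages and osteoclasts, was at 11.3, 5.95 and 8.98 CPM in A79, A76B and A16B and at 4.62, 0.314 and 1.48 CPM in A85, A76 and A73, a difference of 1.85 on the log2 scale with SDs of 0.41 and 1.05 (n = 3 each). A16 (6.81 CPM) and A72 (5.31 CPM) also lay above the low libraries, and the highest non-affected library had 1.5 CPM. PLA2G4A, the cytosolic phospholipase A2 that releases arachidonic acid, was at 16.8, 10.9 and 9.02 CPM against 2.44 CPM in A85, 3.4 CPM in A76 and less in A73, a difference of 2.18. F3, the tissue factor that starts coagulation, was at 50.3, 24.7 and 20 CPM against 10, 5.55 and 4.37 CPM, a difference of 2.05. PTPRU, a receptor tyrosine phosphatase, was at 39.7 to 63.7 CPM against 6.02 to 12.6 CPM, and A4, outside both groups, had the highest value of the 9 libraries at 76.3 CPM. F3 and PLA2G4A were also among the 11 genes higher in A79 and A76B than in each of the other 7. Non-affected libraries reached 15.3 CPM of PLA2G4A, 19 CPM of F3 and 16.8 CPM of PTPRU.

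In other genes of this set A16B and A16 were the top pair. ACKR4, a scavenging receptor for chemokines, was at 41.5 CPM in A16B and 30.3 CPM in A16 but only 6.06 and 2.95 CPM in A79 and A76B, so that its difference of 2.25 turned to -0.37 when A79 and A76B were set against the other 7. GPR183, an oxysterol receptor that guides leukocytes, was at 16.9 CPM in A16B against 5.77 and 4.30 CPM in A79 and A76B. MCOLN3, a lysosomal cation channel, was at 28.2 CPM in A16B and 35.2 CPM in A16 against 6.23 CPM in A79. The homeobox gene IRX2 was highest in A16 (27.8 CPM), followed by A16B (18.7 CPM) and A79 (16.5 CPM), and was at 0.89 to 5.03 CPM in the low libraries. ZNFY1 was at 6 to 11.9 CPM in the high and 0.208 to 1.57 CPM in the low libraries, the largest difference among the named genes at 2.55. Non-affected libraries reached 25.8 CPM of ACKR4, 20.9 CPM of GPR183, 17.9 CPM of IRX2 and 8.51 CPM of ZNFY1, but only 4 CPM of MCOLN3.

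Matrix genes of the set differed in which library led. THBS2, a matricellular thrombospondin, was at 412 CPM in A76B, 118 CPM in A16B and 82.0 CPM in A79 against 25.8 to 45.7 CPM in the low libraries. The matricellular CCN3 was likewise highest in A76B (89.3 CPM), and the matrix protein gene ABI3BP in A16B (19.5 CPM). MSX2, a homeobox repressor, was at 11.8 to 31.6 CPM against 2.4 to 4.62 CPM, and the protocadherin FAT4 at 30.4 to 62.4 CPM against 7.15 to 17.3 CPM. TNC, the matrix glycoprotein tenascin C, was at 3240 to 4290 CPM in the high and 849 to 1930 CPM in the low libraries. MYH15, a myosin heavy chain, was at 2280 to 3020 CPM in the high and 427 to 1420 CPM in the low libraries, a difference of 1.71. Non-affected libraries reached 3930 CPM of MYH15 and 1820 CPM of TNC. In the list of 33 matrix and protease genes TNC and LOXL2 were higher, none was lower, and the median difference was 0.17.

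The 51 lower genes included secreted factors and a myogenic regulator. MYF5, the earliest of the myogenic determination factors, was at 4.57, 3.13 and 4.18 CPM in the high and 33.4, 9 and 23.2 CPM in the low libraries, a difference of -2.04 with SDs of 0.23 and 0.92 (n = 3 each). A4 (3.57 CPM) and A16 (3.99 CPM) were as low as the high group. BMP3, a BMP family ligand that opposes BMP signalling, was at 6.44 to 11.9 CPM against 17.1 to 92.1 CPM, a difference of -2.36. MOXD1, a copper monooxygenase homologue, was at 12.6 to 31.4 CPM against 57.4 to 99.4 CPM, and it was also lower in A79 and A76B than in each of the other 7. ARG2, the mitochondrial arginase, was at 3.44 to 17.6 CPM against 25.0 to 81.3 CPM. LAMP5, the matrix protein SMOC2, EMILIN2 and LHFPL5 had differences of -2.27, -2.09, -1.80 and -1.70. CCK, the cholecystokinin gene, owed its difference of -2.01 to 329 CPM in A85, as the other 8 libraries had 5.70 to 22.0 CPM. KIF26A, a kinesin family gene, likewise had 33.3 CPM in A76 and 0.705 to 4.26 CPM in the rest.

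**Figure D3:**
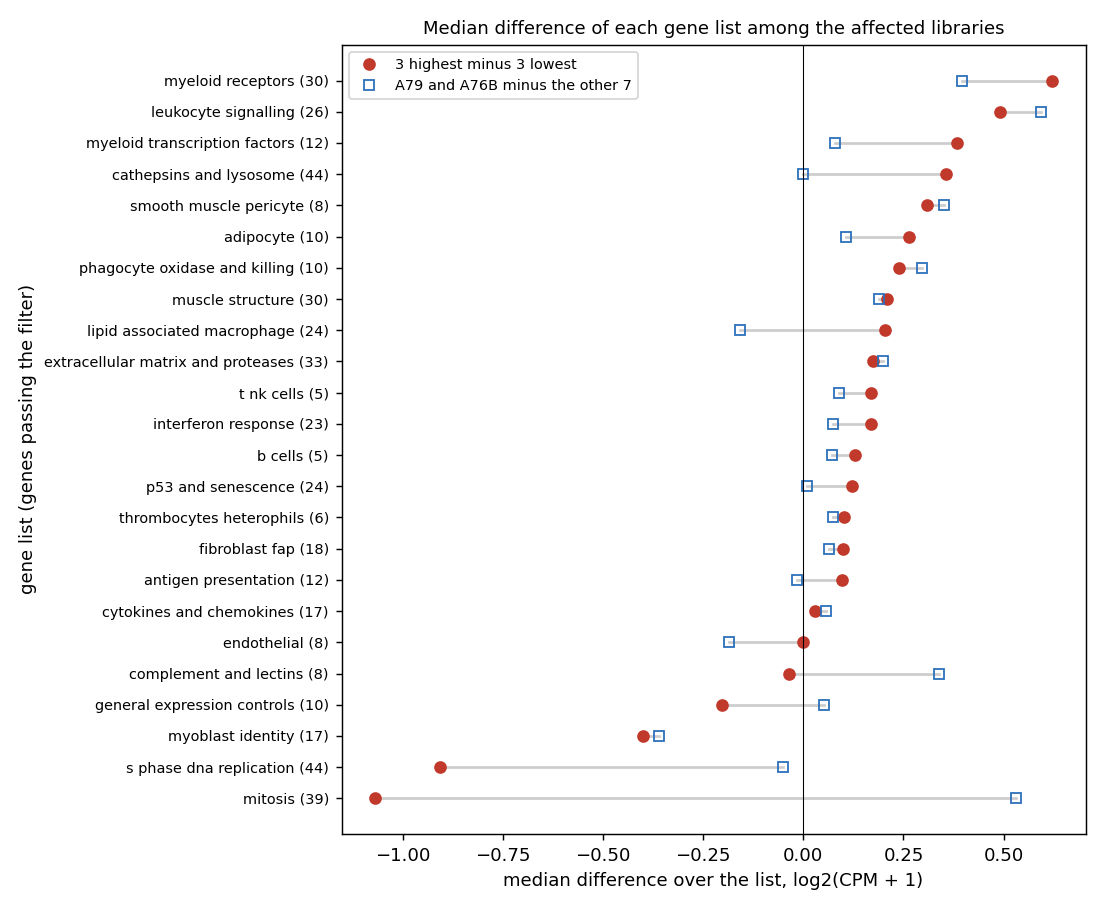
For each gene list with 5 or more passing genes (number in brackets), the median difference on the log2(CPM + 1) scale is shown for the 3 highest minus the 3 lowest libraries (filled circles) and for A79 and A76B minus the other 7 (open squares). The myeloid receptor and leukocyte signalling lists lie to the right in both, and the mitosis list changes side, from -1.07 to 0.53.

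Across the lists, apart from the 4 markers, myeloid receptors and leukocyte signalling genes had the largest positive medians and the cell cycle genes the largest negative ones. Other leukocyte lists were nearer to 0, with medians of 0.24 for the phagocyte oxidase list and -0.04 for complement, and the smooth muscle and pericyte list had 0.31. Myeloid receptors had a median difference of 0.62, with 27 of 30 passing genes positive and 1, TREM2, meeting the rule. Leukocyte signalling genes had a median of 0.49, with 21 of 26 positive and 1, BTK, meeting it. Cathepsins and lysosomal genes had a median of 0.36 with 37 of 44 positive, but the median was 0.00 when A79 and A76B were set against the other 7. The aspartic protease CTSD was highest in libraries outside both groups, with 23800 CPM in A72 and 24000 CPM in A4 (but 11600 CPM in A16), against 15600, 9510 and 11100 CPM in the high and 4680 to 8370 CPM in the low libraries. Genes of lipid-associated macrophages had a median of 0.20, with the tetraspanin CD9 the only one of 24 to meet the rule, and -0.16 in the other comparison. GPNMB, a lysosomal glycoprotein of foamy macrophages and melanocytes, was at 3910 CPM in A16B and 3360 CPM in A72 but 1080 and 819 CPM in A79 and A76B. HPGDS, the prostaglandin D synthase of blood cells, was highest in A16B (671 CPM) and lowest in A73 (127 CPM). Interferon response genes had a median of 0.17, with USP18 1 of 23 to meet the rule, and antigen presentation genes 0.10 with none of 12.

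The low group held the 2 libraries with the highest levels of cell cycle genes. For the 39 mitosis genes the mean log2(CPM + 1) was 6.54 in A73 and 6.11 in A76, against 5.15 in A79, 4.93 in A76B, 3.73 in A85, 3.17 in A16B and 3.10 in A72. None of the 39 genes had a positive difference between the high and low groups, the median was -1.07, and none met the rule, as A85 overlapped with the high libraries. TOP2A, the topoisomerase of dividing cells, was at 384 and 313 CPM in A73 and A76 and 49.5 CPM in A85, against 145, 114 and 28.2 CPM in A79, A76B and A16B. The 44 genes of S phase and DNA replication had a median of -0.91, with all 44 negative. MCM2, a subunit of the replicative helicase, met the rule at 20.1 to 28 CPM in the high and 31.3 to 97.1 CPM in the low libraries. With A79 and A76B against the other 7 the mitosis median was 0.53 and the S phase median -0.05. The part of these cell cycle levels in the other differences between the high and low groups was not tested.

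**Figure D4:**
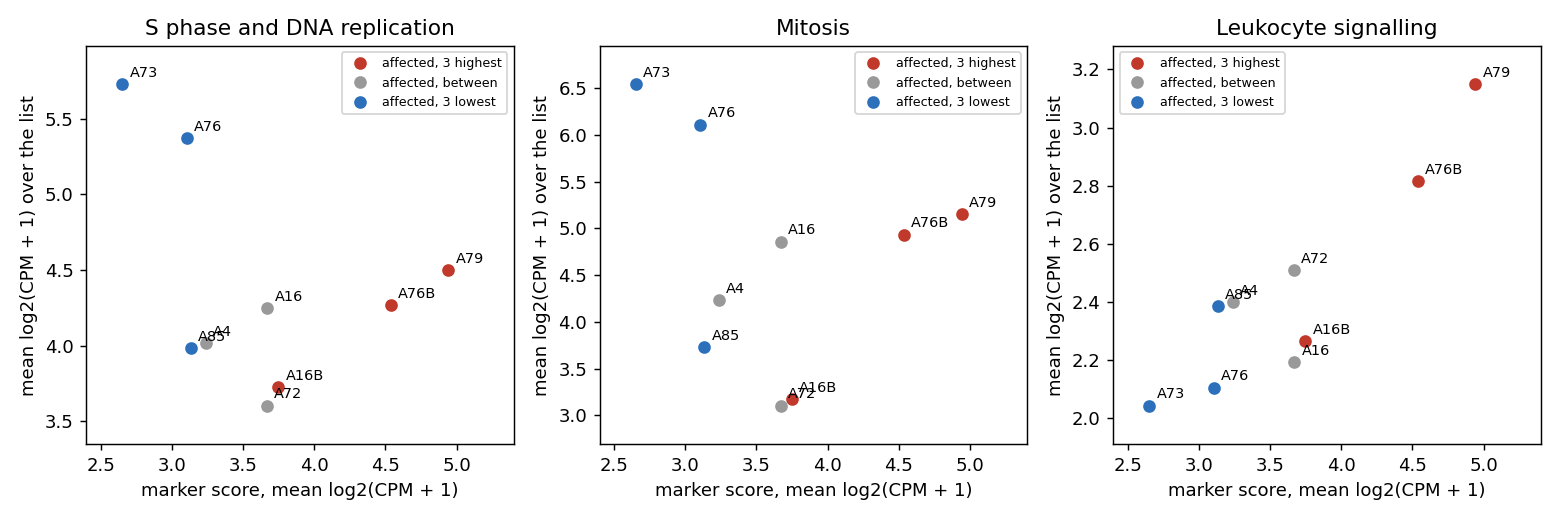
Mean log2(CPM + 1) over the S phase, mitosis and leukocyte signalling lists is plotted against the marker score for the 9 affected libraries. A73 and A76 stand highest for both cell cycle lists, A85 lies near A16B and A72, and A79 and A76B stand apart for leukocyte signalling.

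Genes of myoblast identity were lower on balance in the high group. Of 17 passing genes 5 had a positive difference, the median was -0.40, and MYF5 alone met the rule. MYF6, another myogenic factor, was at 37.3 CPM in A85 and 18.0 CPM in A73, and at 7.09, 0.0614 and 1.92 CPM in A79, A76B and A16B. It did not meet the rule, because A76, the remaining low library, was not above A79. A72, outside both groups, had 25.0 CPM of MYF6. NCAM1, a surface adhesion molecule of myoblasts, was lower in A79 (9.09 CPM) and A76B (5.03 CPM) than in each of the other 7 (9.79 to 54.1 CPM). PAX7 was at 70.1, 34.5 and 64.0 CPM in the high and 130, 68.4 and 90.1 CPM in the low libraries, and A79 and A76 overlapped. MYOG, which drives differentiation, was at most 0.519 CPM in any affected library. The median of the identity list was 0.13 when PTPRC was left out of the score, with A72 and A4 then in the groups. Muscle structure genes had a median of 0.21, and MYH15 was the only one of 30 to meet the rule.

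Among genes with enough counts for this ranking, those that followed the score most closely over all 9 libraries were not mainly leukocyte genes. The limit of 50 counts left out leukocyte genes with similar coefficients, such as IL2RG (r = 0.922) and BTK (r = 0.915). Ranked by Pearson r among genes with a symbol and a mean of at least 50 counts, F3 came first (r = 0.95, rho = 0.97, and r = 0.88 without A79 and A73, the libraries farthest from the median score). CSF3R followed (r = 0.94, rho = 0.78, and 0.84 without those libraries). RRAGC, a Rag GTPase that signals amino acids to mTORC1 at the lysosome, had r = 0.94 although its level moved only from 51.6 CPM in A73 to 68.0 CPM in A79. SHTN1, TMEM131L, ANO6, FAM13B, SKOR2, TRPC4 and PPME1 completed the 10 highest, with r from 0.90 to 0.94 and 0.80 to 0.89 without A79 and A73. ANO6, the calcium-activated lipid scramblase, reached 94.1 CPM in A79 but 39.9 CPM in A73, and SHTN1 (shootin 1) had 13.8 and 2.22 CPM. At the other end were YES1, a Src family kinase (r = -0.94, rho = -0.97), PTS, RPS6KL1, PRADC1 and OSR2, with r from -0.89 to -0.92. YES1 spanned only 88.9 to 106 CPM, so a close relation with the score did not mean a large difference. These are the extremes of those of the 14618 genes that met the conditions on symbol and counts. The 9 libraries share their scaling and depth, and the coefficients are descriptions.

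Outside the leukocyte lists, the genes higher in A79 and A76B than in each of the other 7 held further genes of immune cells as well as genes of connective tissue. They are named here after their values were seen. ADAM28, a metalloprotease of lymphoid and myeloid cells, was at 17.2 and 6.44 CPM and at most 2.28 CPM, in A85, among the others. P2RY6, a nucleotide receptor, was at 10.3 and 4.60 CPM against at most 0.983 CPM, and HCLS1, a cortactin homologue of blood cells, at 6.46 and 3.68 CPM against at most 1.76 CPM. FBN1, the microfibril protein fibrillin 1, was at 2200 and 2520 CPM against 884 to 1730 CPM, and the fibrillar collagen gene COL11A1 at 85.5 and 82.1 CPM against 4.20 to 58.2 CPM. Of the 32 lower genes, MGP, an inhibitor of calcification, was at 82.8 and 97.1 CPM against 104 to 1750 CPM. PDGFRA, the receptor that marks fibro-adipogenic progenitors, was at 0.915 and 0.123 CPM against up to 9.7 CPM in the others, none of which was below A79. It was the only one of 18 passing fibroblast genes to meet the rule, and the collagen genes COL1A2 and COL1A1 of that list were higher in the top pair on average, by 1.52 and 1.13. The neuropeptide gene ADCYAP1 was at 1.09 and 4.23 CPM against 15.7 to 29.1 CPM. How far leukocytes, stromal cells or the culture of these libraries account for such genes was not tested.

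In the 11 non-affected libraries, which the order did not use, the score was tested as a slope for every gene, to see whether the same 4 genes order other cultures along the same genes. The study set aside some non-affected libraries as outliers without naming them, and all those listed were used here. In the quasi-likelihood fit of edgeR, with p-values adjusted after Benjamini and Hochberg and a limit of 0.05, 0 of 15837 genes (0%) rose with the score and 1 (0.00631%) fell, and 1324 genes had an unadjusted p under 0.05. limma-voom also called 0 and 1 gene, whereas the Wald test of DESeq2 called 67 rising and 78 falling. The gene that fell, ENSGALG00010013483, has no symbol and is named because it was the single call. It was at 8.26 CPM in NA70, the lowest library by the score, and 0.304 CPM in NA61B, the highest, with a slope of -2.44 ± 0.29 (SE) log2 units per unit of score and an adjusted p of 0.0381 in edgeR. It lost the call when any of 10 of the 11 libraries was left out, with adjusted p between 0.0555 and 0.318 in edgeR, the exception being NA62. The p-values measure the spread between these libraries, 4 of which carry a number that occurs with and without the suffix B (NA61 and NA61B, NA64 and NA64B).

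No gene of the leukocyte lists passed the test in the non-affected libraries. CSF1R itself lay between 0.426 and 0.957 CPM, with a slope of 0.08 ± 0.30 (SE), although it is 1 of the 4 genes in the score. The slopes of the other markers, which the score contains, were 1.82 for PTPRC, 1.67 for CTSS and 1.26 for LAPTM5. Of 23 tested leukocyte signalling genes 11 had a positive slope, the median was -0.08 and 0 had an unadjusted p under 0.05 or an adjusted call in edgeR. Of 29 tested myeloid receptors 18 had a positive slope, with a median of 0.19, 0 adjusted calls in edgeR and 6 genes at an unadjusted p under 0.05. Without NA70, 11 of 28 myeloid receptors had a positive slope, with a median of -0.17. The leukocyte signalling genes then had 10 of 23 positive slopes and a median of -0.18. Of the 86 genes higher in A79 and A76B, 69 were tested, 40 had a positive slope with a median of 0.20, and none was called in edgeR, while 12 had an unadjusted p under 0.05. Of the 140 genes higher in the 3 high affected libraries, 136 were tested, 97 had a positive slope with a median of 0.48, and none was called in edgeR, while 29 had an unadjusted p under 0.05. Over all tested genes 7713 of 15837 slopes were positive, with a median of -0.01. HINTW had 0 counts in NA61B and NA61, the 2 highest non-affected libraries by the score, and 1316 to 5701 counts in the other 9. With HINTW as an added term, the genes rising with the marker score in non-affected libraries numbered 0 and those falling 1 in edgeR, and 1454 had an unadjusted p under 0.05.

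The genes with the smallest p in the non-affected libraries included genes of muscle differentiation that were high in NA70 alone. None of them passed the adjusted test. STYXL2, a pseudophosphatase of muscle, was at 18.4 CPM in NA70 and 0 to 1.14 CPM in the other 10, with a slope of -5.03 ± 0.70 (SE) and an adjusted p of 0.0886 in edgeR. CAV3, the muscle caveolin, was at 8.12 CPM in NA70 and at most 0.571 CPM elsewhere (adjusted p = 0.0909 in edgeR). RNASET2, a lysosomal ribonuclease, was at 45.2 CPM in NA70, 10.8 CPM in NA61B and 13.5 to 28.9 CPM between them (adjusted p = 0.0909 in edgeR). SFRP5, a secreted Wnt antagonist, and CHST9, a sulfotransferase, had slopes of -3.18 and -3.33. UNC45B, the myosin chaperone, was at 50.7 CPM in NA70 and 0.152 to 3.43 CPM in the rest, and MYOG at 339 CPM in NA70 and 0.0608 to 17.9 CPM in the rest. In the muscle structure list 4 of 38 tested genes had a positive slope, the median was -1.55, none was called in edgeR and 26 had an unadjusted p under 0.05. Without NA70 the median slope was -0.15, 16 of 36 genes were positive and 5 had an unadjusted p under 0.05. Genes with positive slopes and the smallest p were RAMP3, IL17REL, SRCIN1, COL11A1 and TDRD1, none past an adjusted p of 0.109 in edgeR. COL11A1 was at 103 CPM in NA61B and 56.5 CPM in NA61 and at 2.91 to 20.5 CPM in the other 9, with a slope of 2.28 ± 0.42 (SE).

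**Figure D5:**
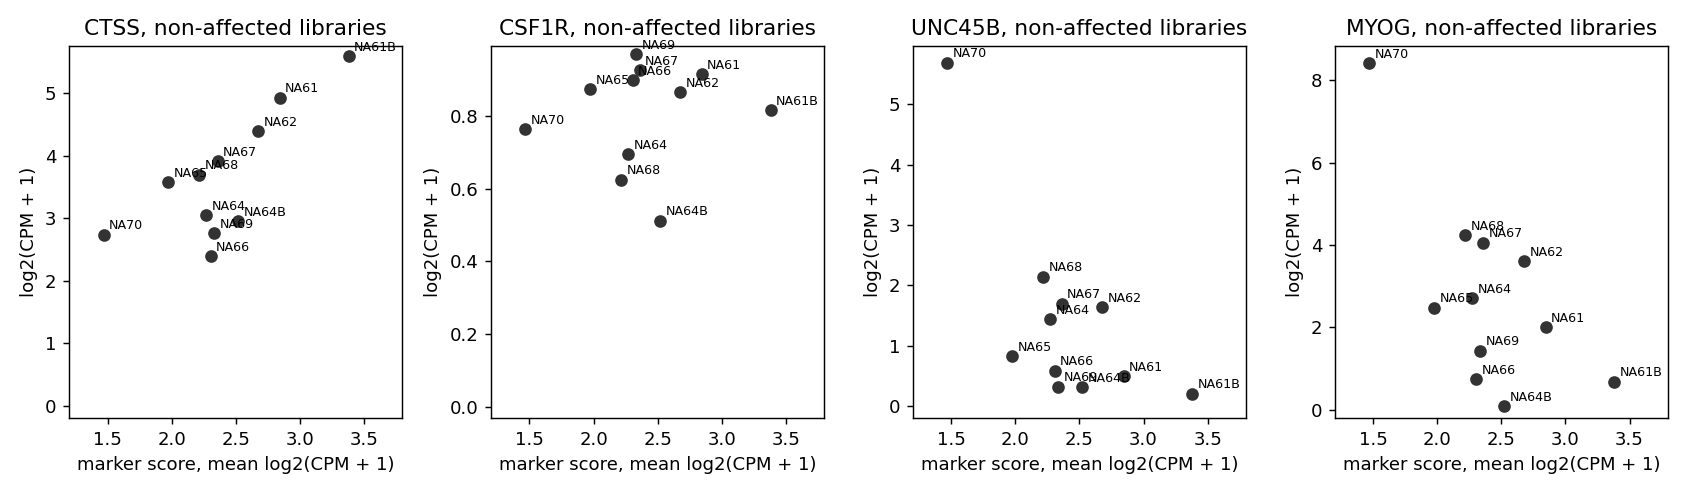
Log2(CPM + 1) of CTSS, CSF1R, UNC45B and MYOG is plotted against the marker score for the 11 non-affected libraries. CTSS is highest in NA61B and NA61, CSF1R stays below 1 in every library, and UNC45B and MYOG are highest in NA70. MYOG also varies among the other libraries, up to 4.24 in NA68.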

How the data were processed

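Per the submitters' processing notes, the authors trimmed the reads with Trim Galore 0.6.7, aligned them with STAR 2.7.9a to GRCg7b and quantified them with Salmon 1.10.1, and they deposited estimated counts per gene that are not normalized between libraries. The table lists 30108 genes. Counts were rounded, TMM factors came from edgeR 4.0.16 over all 20 libraries, and levels are CPM with a pseudocount of 1 on the log2 scale. Genes with a mean of at least 10 counts over the 9 affected libraries were kept. A gene met the rule at a difference of means of 1 or more with no overlap of the groups. In the non-affected libraries the slope on the score was fitted with edgeR after filterByExpr, with the 4 markers left out of all counts, in R 4.3.3, and called at an adjusted p of 0.05 or less. DESeq2 1.42.0 and limma 3.58.1 served as alternatives, and the scripts were tested on simulated data. Members and gene lists were chosen with earlier results of these data known.

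The genes named were the 4 markers, members of the lists, the 15 largest positive and 10 largest negative differences, the 10 largest and 5 smallest r (with a symbol that is not a LOC number and a mean of at least 50 counts), and the 5 smallest p in each direction of the non-affected fit; others are said to be named after their values were seen. Of the symbols, 12863 were placed on GRCg7b through RefSeq. The labels give each library a bird number but do not say whether a number with the suffix B is the same bird, so p-values measure the spread between these libraries. Limits from a count of 0 cover counting error only. Plots were made in Python 3.11.15 with matplotlib 3.10.9.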

Additional observations from a re-analysis of the deposited data

Results flagged for a closer look

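Of 44 values examined over the 9 affected libraries, 2 had 1 library set apart from the rest by more than chance allows in 1 of 20 such groups. CCK, on the log2(CPM + 1) scale, had a gap of 0.683 of its whole range between A85 (329 CPM) and the next library (A72, 22.0 CPM). KIF26A had a gap of 0.625 of its range between A76 (33.3 CPM) and the next (A85, 4.26 CPM). The 44 values are the score, its 4 markers and genes named for extreme differences or r in these same libraries. No rate by chance applies to such a set, and the limit serves as a description. Both genes belong to the 51 lower in the high libraries, and in each the difference rests on that library. No single library had such a gap in the score or the 4 markers, which chose the order. A gap of 1 library cannot show 2 that stand apart together, as A79 and A76B do in CSF1R, so nothing is concluded from this.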

How the results depend on the processing

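The choice of groups mattered more than the scaling. With plain CPM or DESeq2 size factors the groups were the same 6 libraries. The filter on counts has no part in choosing the groups. Of these 6, between 4 and 6 kept their place under other scores and between 5 and 6 when 1 library was left out. Against 140 genes higher in the 3 high than the 3 low affected libraries and 51 genes lower in the 3 high than the 3 low affected libraries, a pseudocount of 0.1 gave 254 and 98, a difference of 0.58 gave 375 and 171, 4 against 4 libraries gave 61 and 8, 2 against 2 gave 495 and 367, summed libraries of a number gave 44 and 11, the score without LAPTM5 gave 67 and 16, and A79 and A76B against the other 7 (added after the data were seen) gave 86 and 32. The lower genes numbered 23 for the score without PTPRC and 78 for the score from the receptor and signalling lists. Leaving out 1 library gave 67 (without A76) to 177 (without A79) higher and 15 (without A73) to 81 (without A79) lower genes.

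Differences of named genes that changed sign were CCK (0.41 without PTPRC in the score, 0.068 with the list score), EMILIN2 (0.27) and KIF26A (0.65) with summed libraries, and ACKR4 (-0.37) with A79 and A76B against the other 7. Each of these settings changed or merged the libraries compared. Summing joined A76 (33.3 CPM of KIF26A, 124 CPM of EMILIN2) with A76B (1.6 and 8.22 CPM). In the last, A16B with 41.5 CPM of ACKR4 was not on the high side. The cause of the sign changes was not tested.

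In the non-affected libraries, against 0 rising and 1 falling gene in edgeR, DESeq2 called 67 and 78 and the score without CTSS 69 and 158. No filter gave 3 falling genes. The score without PTPRC or LAPTM5, libraries without the suffix B and summed libraries gave 0. Leaving out 1 library gave 0 to 1 rising and 0 to 2 falling genes. No paired analysis was possible because the high and low groups share only 1 number (A76B and A76) and carry no test, and the slope in the non-affected libraries compares no groups. With 3 libraries a side and 9 in all, the order of neighbours in the score cannot be resolved, and most leukocyte genes outside A79 and A76B have few counts.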
